A study of Mus musculus with 8 samples.

Results

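Replication-dependent histone genes encode the bulk histones that package newly made DNA. The genes studied here were those whose symbol marks them as a member of the clustered H1, H2A, H2B, H3 or H4 families, leaving out symbols marked as pseudogenes. Of 55292 features in the count table, 65 symbols met that naming rule, and 12 of them had at least 10 reads in at least 2 of the 6 libraries used. The 12 genes were the linker histone genes H1f1, H1f2, H1f3 and H1f5, the H2A gene H2ac8, the H2B genes H2bc4, H2bc6, H2bc21 and Hist1h2bp, the H3 gene H3c8, and the H4 genes H4c9 and H4c11. The read minimum used the same counts as the comparisons below, so passing it is not itself a result.

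The cells were E14 mouse embryonic stem cells of the 129/Ola strain, grown on gelatin with serum and leukaemia inhibitory factor. RNA of all groups was selected for poly(A) tails before sequencing. The labels give 4 groups, of which 3 were analysed, with 2 libraries each: untreated wild type, untreated cells labelled lncSmad7-/-, a knockout of a long noncoding RNA, and lncSmad7-/- cells labelled as transfected with Smad7, whose descriptions name 24 h and which are called Smad7-labelled below. Smad7 is an inhibitor of transforming growth factor beta signalling. The labels do not say which bases the deletion removes or whether the knockout is 1 clone. The series design calls the libraries of a group biological replicates but does not say how they were separated, so p-values reflect only how far these libraries scatter, which may be technical.

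Replication-dependent histone genes are transcribed mostly in S phase, when DNA is copied. Their messages usually have no introns and no poly(A) tail and end instead just after a short hairpin, the stem-loop, which is bound by the protein Slbp. A poly(A) selection therefore captures mainly the minority of these histone messages that carry a tail. Replacement histones, which are made outside S phase too, usually but not always have ordinary tailed messages. Levels below are of captured RNA and do not measure the total histone message.

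The stem-loops are shown because they mark the usual end of these messages, and their place in the annotated transcript tells how far the gene model runs beyond it. They were read from the GENCODE M21 transcripts of the mouse build GRCm38, 5′ to 3′, with the 4 bases of the loop in capitals. The search looked in the 200 bases after the stop codon for a 16-base hairpin with stems of 6 bases. It had to start with GG, end with CC, have a loop starting with TT and pair at 5 or more of the 6 stem positions.
H1f2, chr13:23739512-23739527, plus strand: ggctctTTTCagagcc
H2ac8, chr13:23570668-23570683, minus strand: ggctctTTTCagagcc
H4c11, chr13:21735437-21735452, plus strand: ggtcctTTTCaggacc
H4c9, chr13:22040966-22040981, minus strand: ggccctTTTTagggcc
The first 2 hairpins are the same in every base, and the H4 genes differ from them in the stem, H4c9 also in the loop. The annotated transcript ran on for 840 bases past the hairpin in H1f2, 330 in H4c9, 385 in H4c11 and 151 in H2ac8. H1f3, H2bc6 and Hist1h2bp also held a hairpin, which made 7 of the 12 genes, against 33 of the 51 other symbols with an annotated coding transcript. H2ac14 and Hist1h2al, which the annotation types as pseudogenes though their symbols do not say so, have no such transcript. They stay among the 65 symbols, with 0 and 15 reads in total. No such hairpin lay in the window searched in the annotated transcripts of H1f1, H1f5, H2bc4, H2bc21 and H3c8. The H1f5 model has no bases after the stop codon and the H1f1 model only 48, so a hairpin could be missed there.

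The gene models of the 12 genes reached farther past the coding sequence than those of the other symbols of the rule. The 12 genes had a median of 403 bases after the stop codon, with 7 of 12 past 300 bases, and the 51 others had a median of 80 bases, with 13 past 300. The polyadenylation signal AATAAA, searched on the transcript strand, lay in the last 50 bases of the transcript in 5 of the 12 genes (41.7%): H1f2, H2ac8, H2bc21, H4c11 and Hist1h2bp. It lay there in 3 of 51 other symbols (5.88%) and in 57.3% of 21951 protein-coding genes. The Hist1h2bp transcript searched for the signal was not the one that held its hairpin. A longer model offers more bases to count reads on, and that part of the difference in counts was not tested. H2bc4 had a spliced model whose longest transcript ran 742 bases past the stop codon, with no hairpin and no AATAAA in the last 50 bases.

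The promoters of a linker, a core H2A and a core H4 gene are shown with matches to elements of this family. They are the 150 bases before the RefSeq transcript start (GRCm38.p6), 5′ to 3′ on the gene's strand, with 3 motifs in capitals where found on either strand: the TATA box (TATAAA), the CCAAT box and the octamer (ATTTGCAT).
H1f2, chr13:23738657-23738806, plus strand: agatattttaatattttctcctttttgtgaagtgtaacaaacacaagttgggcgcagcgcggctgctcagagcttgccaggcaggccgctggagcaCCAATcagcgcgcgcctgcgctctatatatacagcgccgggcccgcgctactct
H2ac8, chr13:23571221-23571370, minus strand: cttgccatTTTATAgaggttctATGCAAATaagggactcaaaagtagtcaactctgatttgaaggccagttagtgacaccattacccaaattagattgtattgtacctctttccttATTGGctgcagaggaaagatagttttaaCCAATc
H4c9, chr13:22041363-22041512, minus strand: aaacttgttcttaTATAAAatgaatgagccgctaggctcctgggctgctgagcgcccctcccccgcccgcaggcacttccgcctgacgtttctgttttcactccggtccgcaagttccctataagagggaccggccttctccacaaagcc
These letters are matches, not bound sites. In H2ac8 the TATAAA and the octamer match on the opposite strand. That is the strand of H2bc8, whose annotated start lies just beyond the window, at chr13:23571396. The matches are counted below for H2ac8, and which gene they serve was not tested. In H4c9 the TATAAA lies at the end of the window far from the start, and CCAAT was not found. Promoter windows were held for 10 of the 12 genes (11 windows); H2bc4 and H2bc21 had no entry. CCAAT was present in 9 of 11 windows (81.8%), in 83.0% of 47 windows of the other symbols and in 24.5% of 32851 windows of all genes. TATAAA was present in 5 of 11 (45.5%), in 38.3% of the others and in 7.57% of all. The octamer was present in 2 of 11 (18.2%), in 17.0% of the others and in 0.998% of all.

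The libraries held 13392941 to 20209760 counted reads each, of which 361 to 673 fell on the 65 symbols. The 12 genes took 2280 of these 2967 reads (76.8%), and 13 symbols had no read in any library. That allows a level of up to 0.153 to 0.194 CPM per library, where CPM is the read count scaled to a common library size. The ceiling assumes that reads on these symbols could be assigned. Among them, H2ac18, H2ac19, H2bc18, H3c13 and H3c14 are overlapped over their whole exon length by other annotated genes. The treatment of shared reads is not stated in any source used. The tests used edgeR's quasi-likelihood test over 17342 genes with Benjamini-Hochberg adjustment and a threshold of 0.05, and levels are CPM scaled by the trimmed mean of M-values (TMM). All 10 pluripotency markers were tested and present, and their summed level was 4644 to 7120 CPM, with 8 higher and 2 lower in the knockout than in wild type. lncSmad7 was read in every library, with 237 and 221 reads (wild type), 140 and 105 (knockout), and 167 and 207 (Smad7-labelled). Smad7 fell by 0.43 on the log2 scale in the knockout (SE 0.05, edgeR adjusted p = 5.9e-15), and its level in the Smad7-labelled libraries was 96.6 CPM against 97.6 in wild type (log2 -0.01, adjusted p = 0.790). With library size scaling that difference was 0.38 (adjusted p = 3.4e-13). Whether the transfected RNA would be counted there cannot be told from these counts.

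The knockout libraries carried fewer histone reads than wild type. The summed level of the 65 symbols was 35.9 and 37.6 CPM (wild type), 24.2 and 19.0 (knockout), and 26.0 and 24.2 (Smad7-labelled). Both wild-type libraries lay above the other 4, and knockout replicate 1 lay above replicate 2 with exact Poisson 95% intervals of 22.1 to 26.5 and 17.1 to 21.0 CPM, which cover counting error only. These sums are given as a description and were not tested. The H2B symbols held 44.1% of the reads of the 65 symbols, the H1 symbols 24.1%, the H4 symbols 15.6%, the H3 symbols 9.30% and the H2A symbols 6.88%. Fewer cells in S phase and less message per cell cannot be told apart in such bulk RNA.

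**Figure D1:**
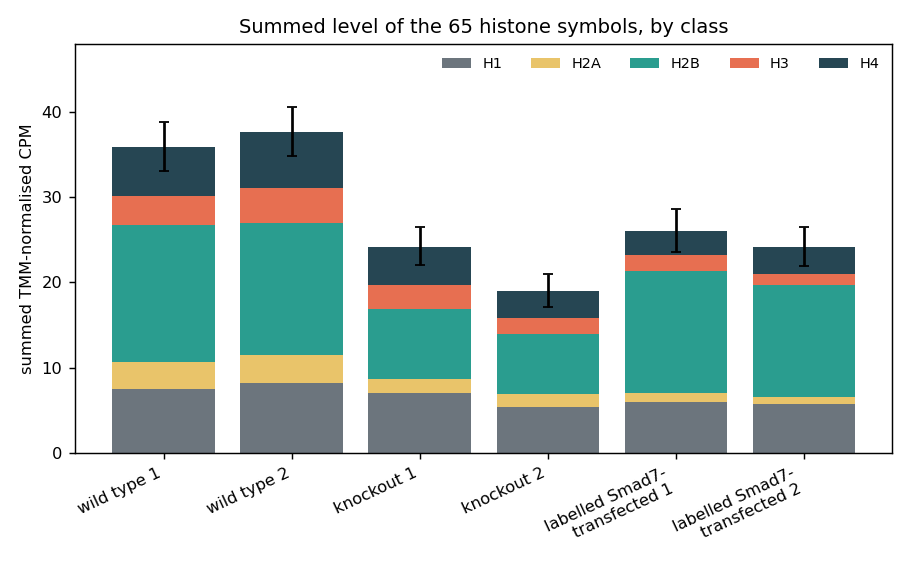
Summed TMM-normalised CPM of the 65 histone symbols in each of the 6 libraries, stacked by class; the bars in black are exact Poisson 95% intervals of the total. Wild type stood at 35.9 and 37.6 CPM, above every other library, and the H2B part was smallest in the 2 knockout libraries.

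The sum depended on 1 gene and on the scaling. Without H2bc4 the other 11 genes summed to 15.5 and 16.9 CPM (wild type), 13.5 and 10.4 (knockout), and 10.2 and 10.4 (Smad7-labelled). The 12 genes together averaged 27.7, 15.8 and 20.8 CPM in the 3 groups. Scaled by library size alone they averaged 24.4, 15.4 and 24.1, so the Smad7-labelled libraries then stood near wild type. The 53 symbols under the read minimum had 8.67 and 9.51 CPM (wild type), 6.78 and 4.89 (knockout), and 4.78 and 3.79 (Smad7-labelled).

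RNAs that normally carry no poly(A) tail moved too. Of 20 listed, 18 were in the table, and these summed to 4.48 and 4.81 CPM (wild type), 6.98 and 5.21 (knockout), and 2.71 and 2.81 (Smad7-labelled). Rpph1, the RNA of ribonuclease P, rose by 0.65 in the knockout (log2, SE 0.26, edgeR adjusted p = 0.0183) and fell by 1.84 from there (SE 0.34, adjusted p = 5.8e-08). The rise was lost in DESeq2 (0.242), without either wild-type library (0.0531 and 0.0901) and without knockout replicate 1 (0.0834). Of the 4 RNAs tested, 1 was called higher in the knockout and 3 were not called, with Snord17 at -0.68 (log2, edgeR adjusted p = 0.132). Rmrp had 3 and 18 reads in wild type and 40 and 4 in the knockout, so it raised the sum of knockout replicate 1. The exact Poisson intervals of the sum overlapped between knockout replicate 2 (4.23 to 6.34 CPM) and wild-type replicate 2 (3.85 to 5.94). The full histone sum was lower in the knockout. In the Smad7-labelled libraries both the RNAs and the full histone sum were below wild type. The part of the selection in the histone levels was not tested.

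Per kilobase of annotated exon, H2bc4 was the most abundant of the 12 genes at 7.45 CPM per kilobase over all libraries, followed by H4c9 at 3.33 and H1f2 at 2.82. H3c8 (1.32), H2ac8 (1.16) and H1f1 (0.881) followed, and Hist1h2bp, H1f5, H4c11 and H2bc21 lay between 0.476 and 0.602. H1f3 (0.117) and H2bc6 (0.097) came last, on gene models of 7425 and 4446 bases. Neighbours in this order overlapped in their range over the libraries, except that H1f2 lay above H3c8 and H2bc21 above H1f3 in every library.

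**Figure D2:**
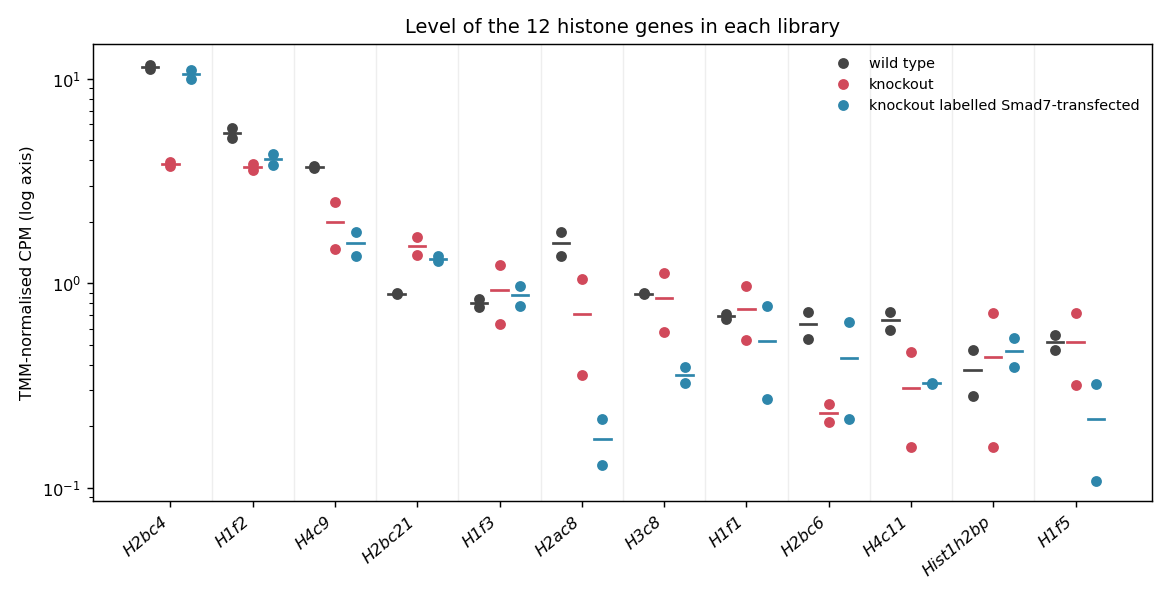
TMM-normalised CPM (log axis) of the 12 histone genes in each library; points are libraries and short bars are group means. H2bc4 has both knockout points well below the other 4, and most genes with a mean under 1 CPM have points of different groups interleaved.

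Against wild type, 1 of the 11 genes tested rose and 5 fell in the knockout. Of all genes tested, 67.7% were called in either direction, 34.5% as higher and 33.3% as lower, so 6 of 11 called is close to that background. The median log2 fold of the 11 genes was -0.56, beside 0.02 over all genes tested. H1f5 was removed by the filter on low counts and entered no test. Since 11 of the 12 genes passed that filter through their own levels, these counts describe the genes tested. H2bc6 is among the 5 that fell, though it met the read minimum without a knockout library.

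H2bc4, a core H2B gene, had the smallest adjusted p of the 11 genes in the knockout. It had 199 and 201 reads (wild type), 77 and 71 (knockout), and 171 and 185 (Smad7-labelled), or 11.5 ± 0.352, 3.83 ± 0.135 and 10.5 ± 0.727 CPM (SD, n = 2). The knockout libraries were lowest, and no 2 groups overlapped. It fell by 1.58 on the log2 scale in the knockout (SE 0.15, edgeR adjusted p = 2.4e-21) and rose by 1.45 from the knockout to the Smad7-labelled libraries (SE 0.15, adjusted p = 2.5e-18). Against wild type the last group differed by -0.13 (SE 0.11, adjusted p = 0.279), and by 0.26 with adjusted p = 0.0302 when scaled by library size. H2bc4 was the 1 gene of the 11 that passed in opposite directions in these comparisons, which share the knockout libraries. Its coding sequence matches that of Hist1h2br in 379 of 381 bases, and Hist1h2br had no read in any library; the treatment of reads shared between copies is not stated in any source used.

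The other 3 H2B genes rested on few reads. H2bc21, on chromosome 3, had 15 and 16 reads (wild type), 27 and 32 (knockout), and 20 and 25 (Smad7-labelled). Wild type was lowest, and H2bc21 rose by 0.77 in the knockout (log2, SE 0.33, edgeR adjusted p = 0.0274). That call was lost when either wild-type library was left out (adjusted p = 0.0913 and 0.0910), without knockout replicate 2 (0.165) and in DESeq2 (0.225). H2bc6 had 9 and 13 reads (wild type), 5 and 4 (knockout), and 10 and 4 (Smad7-labelled), and fell by 1.41 in the knockout (SE 0.60, edgeR adjusted p = 0.0196). It met the read minimum through wild-type replicate 2 and Smad7-labelled replicate 1 and no knockout library, so the selection favoured that fall. The H2bc6 call was lost without wild-type replicate 2 (adjusted p = 0.190), without knockout replicate 1 (0.0771) or 2 (0.128) and in DESeq2 (0.154), and its model shares 496 bases of exon with the linker histone gene Hist1h1e on the same strand. Hist1h2bp had 8 and 5, 14 and 3, and 6 and 10 reads in the 3 groups, which overlapped, and passed no test.

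The linker histones bind the DNA between nucleosomes. H1f2, the H1 gene of highest level per kilobase, had 87 and 103 reads (wild type), 75 and 68 (knockout), and 59 and 79 (Smad7-labelled). Wild type was highest at 5.45 ± 0.444 CPM, against 3.70 ± 0.175 and 4.04 ± 0.329 (SD, n = 2), and the last 2 groups overlapped. H1f2 fell by 0.56 in the knockout (log2, SE 0.17, edgeR adjusted p = 0.0018) and by 0.43 in the Smad7-labelled libraries (SE 0.17, adjusted p = 0.0159). The second call was lost when scaled by library size (log2 -0.03, adjusted p = 0.857), in DESeq2 (0.0982), under a stricter filter (0.0699), without wild-type replicate 2 (0.108) and without replicate 1 of the Smad7-labelled libraries (0.102).

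H1f1 had 12 and 12 reads (wild type), 19 and 10 (knockout), and 12 and 5 (Smad7-labelled). H1f3 had 13 and 15, then 24 and 12, then 12 and 18 reads in the same order, and H1f5 had 8 and 10, 14 and 6, and 5 and 2. For all 3, knockout replicate 1 was the highest library and replicate 2 lay below both wild-type libraries in CPM. Neither H1f1 nor H1f3 passed a test in any comparison of the main fit, with log2 folds between -0.58 and 0.21. Without replicate 1 of the Smad7-labelled libraries, the H1f1 fold from the knockout was -1.46.

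Of the 19 H2A symbols of the rule only H2ac8 reached the read minimum. It had 23 and 32 reads (wild type), 7 and 20 (knockout), and 2 and 4 (Smad7-labelled), with mean levels of 1.57, 0.704 and 0.173 CPM. The 3 groups did not overlap in CPM, though the knockout libraries lay far apart. H2ac8 met the read minimum without a Smad7-labelled library, so the selection favoured falls into that group. H2ac8 fell by 1.17 in the knockout (log2, SE 0.36, edgeR adjusted p = 0.0021), fell by 1.94 from the knockout to the Smad7-labelled libraries (SE 0.68, adjusted p = 0.0022) and fell by 3.11 from wild type to those libraries (SE 0.65, adjusted p = 1.1e-08). The first call was lost without knockout replicate 1 (log2 -0.58, adjusted p = 0.203), without wild-type replicate 2 (0.0630) and in DESeq2 (0.0928), and the second without knockout replicate 2 (log2 -1.01, adjusted p = 0.280). The gene shares 138 bases with Gm44394 on the opposite strand, and its coding sequence matches H2ac7 in 390 of 393 bases.

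H3c8, the core H3 gene, had 15 and 16 reads (wild type), 22 and 11 (knockout), and 6 and 6 (Smad7-labelled). The last group was lowest and the knockout libraries lay on both sides of wild type. H3c8 met the read minimum only through wild-type and knockout libraries, so the selection favoured falls into the last group. H3c8 fell by 1.26 from the knockout to the Smad7-labelled libraries (log2, SE 0.51, edgeR adjusted p = 0.0131) and by 1.32 from wild type (SE 0.51, adjusted p = 0.0090). The first call was lost without knockout replicate 1 (0.334), and both without replicate 2 of the Smad7-labelled libraries (0.0962 and 0.0757) and in DESeq2 (0.125 and 0.0806). Scaled by library size, the fall from wild type had an adjusted p of 0.0684.

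Among the core H4 genes, H4c9 had 62 and 67 reads (wild type), 49 and 28 (knockout), and 21 and 33 (Smad7-labelled). Wild type was highest at 3.70 ± 0.063 CPM (SD, n = 2), and the other groups overlapped at 1.47 to 2.50 and 1.36 to 1.78 CPM. H4c9 fell by 0.89 in the knockout (log2, SE 0.22, edgeR adjusted p = 1.3e-04) and by 1.22 in the Smad7-labelled libraries (SE 0.25, adjusted p = 1.3e-06). The call held in both comparisons under every other scaling, tool, filter and set of libraries run, with the knockout fold between -1.32 and -0.55 with a library left out. In the knockout the fold is under 1 in size, so H4c9 is not counted where a log2 fold of at least 1 is asked for. H4c11 had 10 and 13, 9 and 3, and 5 and 6 reads, with wild type highest. It met the read minimum only through its wild-type libraries, so that order and the sign of its folds were favoured by the selection. Its log2 folds of -1.07 in the knockout (edgeR adjusted p = 0.0569) and -1.01 in the Smad7-labelled libraries (0.0681) did not pass. With RLE factors the knockout fold passed (-1.126, edgeR adjusted p = 0.0439). With a library left out that fold lay between -2.015 and -0.505.

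**Figure D3:**
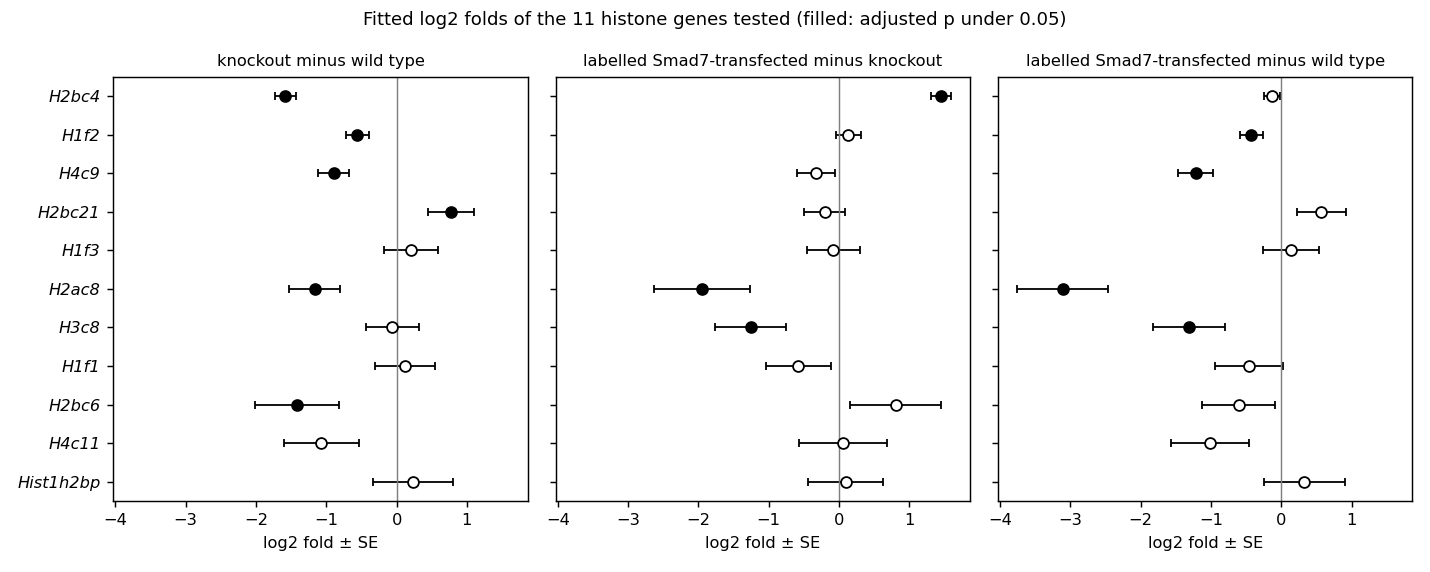
Fitted log2 folds of the 11 histone genes tested with SE bars in the 3 comparisons; filled points have an edgeR adjusted p under 0.05. H2bc4 stands at -1.58 and 1.45 in the first 2 panels and at -0.13 in the third, while H2ac8 lies below 0 in all 3.

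From the knockout to the Smad7-labelled libraries, H2bc4 rose and H2ac8 and H3c8 fell, so 1 of 11 genes was called higher and 2 lower. Both genes that fell met the read minimum without a Smad7-labelled library. The background was 74.6% of all genes tested, 37.8% as higher and 36.8% as lower. The median log2 fold of the 11 genes was -0.08, beside 0.04 over all genes, and it was 0.16 without knockout replicate 1 and -0.57 without knockout replicate 2. Against wild type, H4c9, H3c8, H2ac8 and H1f2 fell, so 4 of 11 were lower and 0 higher in edgeR, with the same counts at an unadjusted p under 0.05. DESeq2 called 2 lower and 0 higher. The background there was 81.9%, with 43.1% as higher and 38.8% as lower, and the median was -0.45 beside 0.09 over all genes. Scaled by library size, 2 genes were called higher, H2bc4 and H2bc21, and 2 lower in that comparison.

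The scaling matters for these calls. Library size scaling moved the median log2 fold of all genes to 0.17, 0.29 and 0.48 in the 3 comparisons, and the share of calls that were higher went from 50.9%, 50.7% and 52.6% to 61.7%, 65.7% and 68.3%. Changes are given relative to the TMM scaling.

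The genes just below the read minimum, each with at least 10 reads in 1 library, were H2bc8, H2bc9, H3c3, H3c6 and H4c4. H2bc8 had 1 and 10, 5 and 2, and 2 and 5 reads in the 3 groups. H2bc9 had 8 and 6, 9 and 10, and 7 and 8 reads in the 3 groups, and H3c6 had 11 and 9, 2 and 1, and 1 and 0. H3c3 had 8 and 14, 4 and 6, and 4 and 3, and H4c4 had 7 and 14, 6 and 3, and 2 and 5. Just inside the minimum, H2bc6 and H4c11 had 45 and 46 reads in total.

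Among 10 genes that switch on histone transcription, 2 rose and 7 fell in the knockout, with a median log2 fold of -0.61. Npat, the coactivator of histone genes, fell from 116 to 50.3 CPM (log2 -1.20, SE 0.05, edgeR adjusted p = 1.5e-52), and Casp8ap2, which is needed for histone gene expression, fell from 187 to 32.4 CPM (log2 -2.52, SE 0.05, adjusted p = 7.0e-86). Ccne2, a cyclin that acts at entry into S phase, fell from 44.9 to 12.7 CPM, and E2f1, a transcription factor of S-phase genes, rose from 37.3 to 78.6 CPM. Npat and Casp8ap2 rose again by 1.18 and 2.20 from the knockout to the Smad7-labelled libraries, where 3 of the 10 rose and 5 fell. Against wild type Npat stood at log2 -0.02 (adjusted p = 0.676) and at 0.37 when scaled by library size, and 1 of 10 rose and 6 fell. With library size scaling the counts of the list were 3 higher and 7 lower in the knockout, then 6 and 3, and 5 and 4 against wild type.

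Among 13 genes that form the histone 3′ end, 4 rose and 7 fell in the knockout, from there to the Smad7-labelled libraries all 13 fell with a median of -0.75, and against wild type 2 rose and 11 fell. With library size scaling 6 rose and 5 fell in the knockout, 9 fell from there, and 4 rose and 8 fell against wild type. Slbp, the stem-loop binding protein, fell from 193 CPM in wild type to 117 in the knockout (log2 -0.73, SE 0.04, edgeR adjusted p = 9.9e-38) and was at 104 CPM in the Smad7-labelled libraries. Its fall of 0.16 between the last 2 groups turned to a rise of 0.09 (adjusted p = 0.0622) when scaled by library size. Lsm10 and Lsm11, proteins of the U7 particle that processes these messages, and Zfp473, a zinc finger protein bound to it, rose in the knockout by 0.62, 0.31 and 0.63, and the Lsm11 call was lost in DESeq2 (adjusted p = 0.0744).

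Of 10 genes of histone message decay, 9 fell in the knockout, among them Eri1, the exonuclease that trims the stem-loop end (187 to 125 CPM, log2 -0.58), Dis3, an exosome nuclease (log2 -0.62) and Tut4, a uridyl transferase (log2 -0.57). From there 4 rose and 6 fell, and against wild type 4 rose and 6 fell. In the knockout 1 rose and 6 fell with library size scaling. Of 15 genes of ordinary cleavage and polyadenylation, 14 fell in the knockout with a median of -0.54, among them Pcf11 (188 to 78.5 CPM) and the poly(A) polymerase Papola (521 to 307 CPM). From the knockout to the Smad7-labelled libraries 6 of these rose and 9 fell, and against wild type all 15 fell. Scaling by library size left 1 higher and 13 lower in the knockout, and 12 lower against wild type. The part of these changes in the capture of tailed histone RNA was not tested.

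Replacement histones are deposited outside S phase too. In the knockout 4 of 11 rose and 4 fell, from there all 11 fell with a median of -0.76, and against wild type 2 rose and 9 fell. With library size scaling 7 rose and 4 fell in the knockout, and 9 of 11 fell from there, where H3f3a (adjusted p = 0.121) and H3f3b (0.595) lost their calls. H1f0, a linker histone of slow-dividing cells, rose by 1.30 in the knockout (30.4 to 75.0 CPM, SE 0.06, edgeR adjusted p = 3.7e-47), and Macroh2a1, a large H2A variant, rose from 41.1 to 124 CPM. H2az1, the variant of H2A found at promoters, fell in each comparison, from 1020 to 532 and then 234 CPM. H2ax, which marks DNA breaks when phosphorylated, stood at 232, 277 and 115 CPM, and H3f3a and H3f3b, which encode H3.3, fell by 0.24 and 0.59 in the knockout.

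Histone chaperones, which carry histones to DNA, had 5 of 24 higher and 16 lower in the knockout. From there 3 were higher and 19 lower, and against wild type 4 higher and 20 lower. Scaled by library size, these were 7 and 14, 5 and 15, and 7 and 16. Nasp, which stores free histones, fell from 1904 to 954 CPM in the knockout (edgeR adjusted p = 6.3e-61) and to 770 in the Smad7-labelled libraries, a second step that was lost with library size scaling (adjusted p = 0.0858). Atrx, which deposits H3.3, fell by 2.34 in the knockout, from 623 to 123 CPM, and stood at 568 CPM in the Smad7-labelled libraries. Chaf1b of chromatin assembly factor 1 rose by 0.28 in the knockout, and Chaf1a and Asf1b had log2 folds of -0.08 and 0.01 that did not pass (adjusted p = 0.0699 and 0.815). Chaf1a passed as lower with RLE factors (log2 -0.13, adjusted p = 0.0017), in DESeq2 (0.0254) and with the replicate block (0.0359) and was 0.066 (0.123) with library size scaling, where Asf1b passed as higher (0.16, adjusted p = 0.0041).

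Of 25 genes of S phase and DNA synthesis, 7 rose and 13 fell in the knockout with a median of -0.11. From the knockout to the Smad7-labelled libraries 1 rose and 23 fell with a median of -0.55, and against wild type 2 rose and 22 fell with a median of -0.62. With library size scaling 12 rose and 9 fell in the knockout, where Tyms turned to 0.037, 3 rose and 17 fell from there, and 5 rose and 14 fell against wild type. Mcm5, of the replicative helicase, stood at 1208, 941 and 600 CPM in the 3 groups, and Tyms, which makes thymidylate, at 156, 145 and 75.7. Cdc6, which loads the helicase, stood at 158, 103 and 83.9. These lists were chosen with earlier results of these data known, and each list's count is to be read beside the background shares above.

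**Figure D4:**
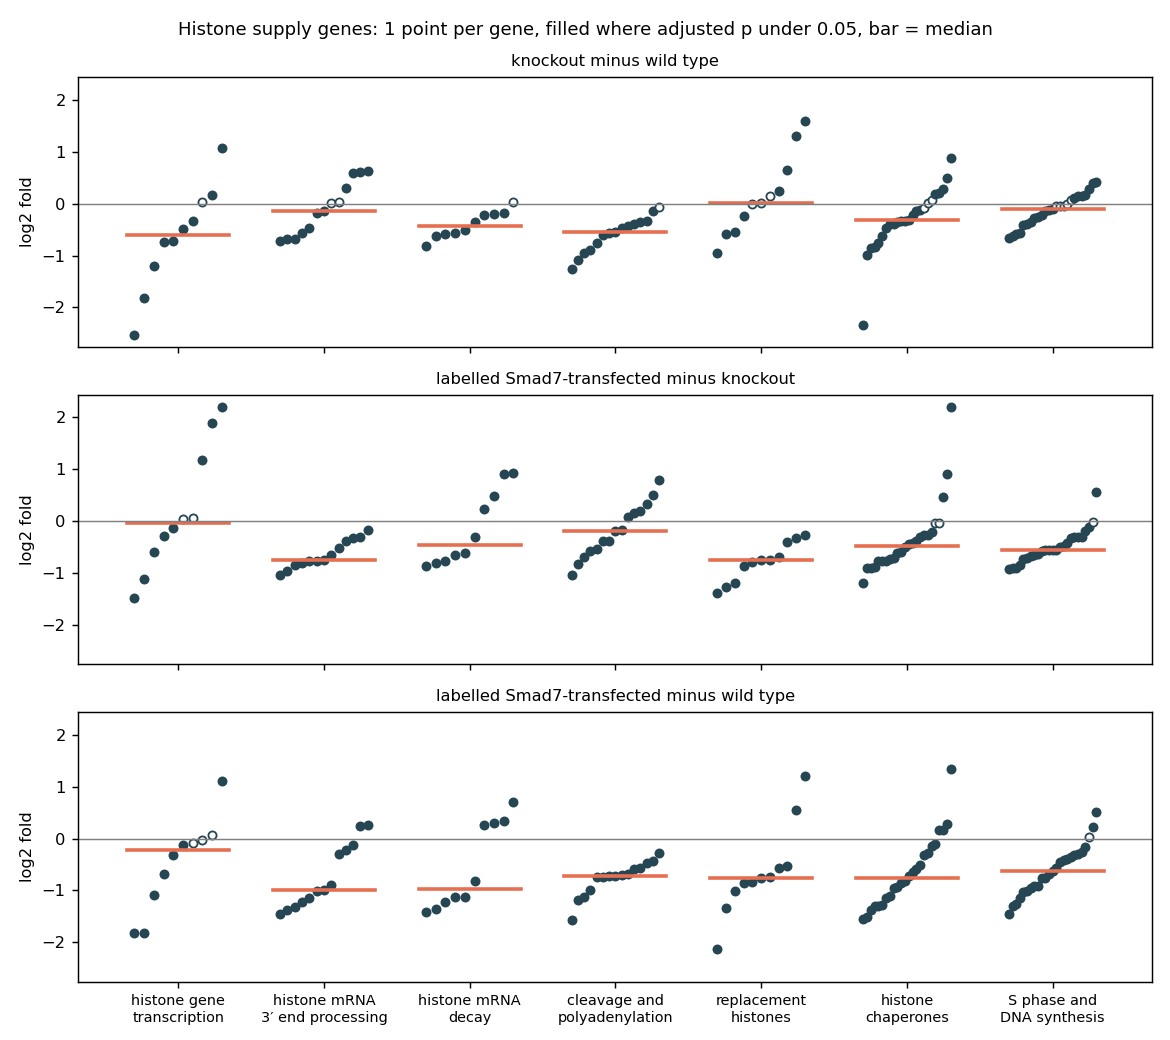
Log2 folds of the genes of 7 lists on histone supply, 1 point per gene and filled where the edgeR adjusted p was under 0.05, with the list median as a bar. All 13 genes of 3′ end processing and all 11 replacement histones lie below 0 in the middle panel, while with library size scaling Slbp is at 0.086 and 9 genes of each list are called lower.

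Cell composition markers also moved. All 7 endoderm markers tested fell in the knockout, 3 of them rose from there to the Smad7-labelled libraries, and the 8 listed genes summed to 88.4 and 92.1 CPM (wild type), 6.89 and 7.90 (knockout), and 10.07 and 10.98 (Smad7-labelled). Gata6 had 167 and 200, 5 and 4, and 29 and 29 reads, and Cubn had 586 and 523, 10 and 11, and 12 and 24. The fibroblast list summed to 10.3 to 10.5, 19.0 to 19.2 and 27.9 to 28.2 CPM. Of its 3 genes tested, Fbn1 and Thy1 rose in the knockout. The third, Col1a1, had a log2 fold of -0.64 there that did not pass (edgeR adjusted p = 0.0906). All 3 rose from the knockout to the Smad7-labelled libraries. Col1a2 had 5 and 9, 0 and 3, and 2 and 1 reads in the 3 groups. Col3a1 had 2 and 2 reads in wild type and 0 in the other libraries. Dcn, Lum and Postn had 0 or 1 read in every library. None of the 8 genes of 2-cell-like cells passed the filter, and together they had 1 to 8 reads per library. Their part in the histone levels was not tested.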

How the data were processed

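RNA of 6 libraries was analysed. The deposited table holds raw read counts per gene symbol made by the authors; the submitters' processing notes list STAR 2.7.7a0, featureCounts 1.6.3, mm10 and GRCm38, and no source used here gives the annotation, the strand setting or the treatment of shared reads. A further 2 columns of the table could be tied to no sample by their names and were left out, so the lncSmad7-transfected group and its planned comparison were not analysed here. Columns were matched to samples through the labels' descriptions. Totals were 13392941 to 20209760 counts, and shares rest on 361 to 673 histone reads per library.

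Genes were kept with edgeR's filterByExpr, scaled by TMM and tested with the quasi-likelihood test of edgeR 4.0.16, with limma 3.58.1 under R 4.3.3, in 1 fit of all 3 groups, which share 1 estimate of the spread with 3 residual degrees of freedom, and p-values were adjusted over 17342 genes. SE are from the fit. The fit was tested on simulated data. DESeq2 1.42.0, other scalings, filters, a replicate block and leaving out each library were alternatives. Positions, lengths and transcripts came from GENCODE M21 by symbol or RefSeq gene, and promoters from RefSeq. The members and lists were chosen with earlier results of these data known. Genes named were those of the greatest change without overlap and at least 2 CPM, the 8 of highest level per kilobase, every H1 gene, genes passing in opposite directions, up to 4 per list by adjusted p, and a fixed set. H2bc6, H2bc21 and H4c11 fall outside that rule and were described so that every member is accounted for.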

Additional observations from a re-analysis of the deposited data

How the results depend on the processing

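Over the alternatives run, folds of the histone genes kept direction and call in 351 cases, lost a call in 23, gained one in 6 and changed sign in 21; for the other genes named these were 1240, 53, 9 and 18. The cause was not tested unless stated.

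Knockout against wild type: the count of higher genes, 1, was 0 in DESeq2 and with a log2 fold of at least 1, and 0 to 1 with a library left out; the count of lower genes, 5, was 3 in DESeq2, 3 at 1 CPM in 4 libraries (4 histone genes tested), 3 with a log2 fold of at least 1, 8 over all symbols of the rule with a count (chosen after seeing the data), and 3 to 5 with a library left out (3 without wild-type replicate 2). The 8 are out of the 65 symbols less the 13 without a read. Beside them, 5668 of 33073 genes were called lower in the same fit without a filter on low counts. With a library left out the median was -0.61 to -0.077 (-0.077 without knockout replicate 2).

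Smad7-labelled against knockout: the count of higher genes, 1, was 2 with library size scaling; the count of lower genes, 2, was 1 in DESeq2, 0 at 1 CPM in 4 libraries, 1 when fitted on 4 libraries, and 1 to 4 with a library left out (1 without knockout replicate 1 or Smad7-labelled replicate 2, 4 without Smad7-labelled replicate 1). With a library left out the median was -0.565 to 0.162.

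Smad7-labelled against wild type: the count of higher genes, 0, was 2 with library size scaling; the count of lower genes, 4, was 2 with library size scaling, 2 in DESeq2, 1 at 1 CPM in 4 libraries and 14 over all symbols of the rule with a count. The 14 are out of the 65 symbols less the 13 without a read. Beside them, 7046 of 33073 genes were called lower in that fit without a filter on low counts. With a library left out the median was -1.026 to -0.28 (-1.026 without Smad7-labelled replicate 1). The summed level was 28.33 CPM with RLE factors and 24.44 with library size scaling in wild type, and 24.13 with library size scaling in the Smad7-labelled libraries.

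Signs changed with library size scaling, in log2. In the knockout they were 0.084 for H3c8, 0.066 for Chaf1a and 0.037 for Tyms. From the knockout to the Smad7-labelled libraries they were 0.17 for H1f3, 0.042 for H2bc21 and 0.086 for Slbp. Against wild type they were 0.26 for H2bc4, 0.37 for Npat, 0.067 for Casp8ap2, 0.17 for Lsm11, 0.26 for Zfp473, 0.30 for Chaf1b, 0.14 for lncSmad7, 0.38 for Smad7 and 0.26 for Atrx. At 1 CPM in 4 libraries they were 0.088 for Npat, 0.012 for Chaf1b and 0.094 for Smad7. Asf1b in the knockout was -0.041 with RLE factors and -0.041 in DESeq2.

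With a library left out, signs changed only for genes whose fold had not passed in that comparison. In the knockout the ranges were -0.38 to 0.50 (H1f1), -0.344 to 0.615 (H1f3), -0.613 to 0.345 (H3c8), -1.205 to 0.94 (Hist1h2bp) and -0.036 to 0.066 (Asf1b). From the knockout to the Smad7-labelled libraries they were -1.46 to 0.041 (H1f1), -0.49 to 0.46 (H1f3), -0.11 to 1.44 (H2bc6), -0.515 to 0.985 (H4c11), -0.67 to 0.089 (H4c9) and -0.61 to 1.51 (Hist1h2bp). Against wild type they were -1.32 to 0.18 (H1f1), -0.044 to 0.28 (H1f3), -1.51 to 0.041 (H2bc6), -0.025 to 0.72 (Hist1h2bp) and -0.048 to 0.028 (Smad7). The lone library left in a group was assumed to vary like the others.

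Same-numbered libraries deviated together with r of 0.006, 0.005 and 0.026, so the numbers do not pair them. With the replicate block, 1 and 5, 1 and 2, and 0 and 4 histone genes were higher and lower in the 3 comparisons, and the calls over all genes went from 11747, 12945 and 14198 to 11822, 12982 and 14219. The alternatives of the lncSmad7-transfected comparison were not run. The gene lists' counts under other scalings were added after seeing the data. At under 35 reads per library for 9 of the 12 genes, counting error limits the precision of their folds.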

Other observations

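Histone symbols outside the naming rule were also present. H2aw, an H2A gene, had 11 and 3 reads (wild type), 20 and 28 (knockout), and 13 and 18 (Smad7-labelled), and it was chosen after its values were seen. Its log2 fold was 1.61 in the knockout (SE 0.46, edgeR adjusted p = 4.2e-04) and 1.17 in the Smad7-labelled libraries against wild type (SE 0.49, adjusted p = 0.0173). Without wild-type replicate 2 the values were 0.93 (adjusted p = 0.0795) and 0.47 (0.409). H2bu2, an H2B gene chosen in the same way, had 17 and 18, 13 and 9, and 11 and 8 reads and did not pass in the knockout (edgeR adjusted p = 0.0646).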
